A study of Homo sapiens with 4 samples.

Results

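The genes described here encode proteases that act at the cell surface or in the extracellular space, and the proteins that hold them in check. They were taken by symbol: matrix metalloproteinases (MMP), ADAM and ADAMTS metalloproteinases, tissue inhibitors of metalloproteinases (TIMP), serpins, HTRA serine proteases, and a set of single genes such as PLAT, PLAUR, CPM, MME and BSG. The rule found 44 genes among the 11650 in the deposited tables. By known role, 22 of them are proteases, 12 are inhibitors and 10 are neither, such as receptors, chaperones and ADAM proteins that lack a working protease site. The rule goes by name, so it also takes in HTRA2, a protease of mitochondria, and several serpins that act mainly inside cells.

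The libraries came from 92.1, an established human cell line of uveal melanoma, a tumour of the pigment cells of the eye. Resistant 92.1 cells (Res) gave 2 libraries and parental 92.1 cells (Ctrl) gave 2 libraries. The labels name neither the agent to which the cells are resistant nor the way resistance was obtained, and do not state if replicates were grown apart, so the p-values rest on a spread that may be purely technical. The cell line field differs between samples while the titles give 92.1 for all, and the titles were followed. The design asks how transcript levels differ between resistant and parental cells.

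Metalloproteinases are zinc enzymes that cut collagen and other matrix proteins, while most catalytic ADAMs cut the extracellular parts of membrane proteins loose, a step called shedding. TIMPs block metalloproteinases by binding their active site. The plasminogen activators, their receptor and the serpins that inhibit them control plasmin, a serine protease that degrades fibrin and activates other proteases. In melanoma these enzymes are known for their part in invasion through the matrix.

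Values are FPKM, a fragment count divided by both the length of the transcript and the size of the library, so levels can be set beside each other between genes. Sums of FPKM were 292736 and 293481 in resistant libraries and 282602 and 283387 in parental libraries, and true depth is unknown. Across genes, the correlation of log2 values was 0.952 within the resistant pair and 0.975 within the parental pair. All 7 listed markers of pigment cells had a value, and their summed FPKM was 2992 and 2260 in resistant libraries and 2584 and 2304 in parental libraries. Of these, TYRP1 was higher in both resistant libraries, SOX10, MITF and DCT were lower in both, and PMEL, MLANA and TYR overlapped between the groups. The most abundant, TYRP1, stood at 2143 and 1514 FPKM in resistant libraries and at 1490 and 1484 FPKM in parental libraries. DCT, the marker with the smallest limma p, stood at 0.486 and 0.517 FPKM in resistant libraries and at 4.88 and 5.46 FPKM in parental libraries. Of other cell types, 1 of 6 endothelial markers had a value (EMCN, 18.8 and 31.8 FPKM in resistant libraries and 19.4 and 21 FPKM in parental libraries). Of markers of retinal pigment epithelium 3 of 6 did, with summed FPKM of 4.48 and 3.08 in resistant libraries and 5.29 and 4.69 in parental libraries. These 3 did not share a direction, since RLBP1 was lower in both resistant libraries, TTR was higher in both and BEST1 overlapped. Levels were compared on the log2(FPKM + 1) scale with limma, which shares the spread between genes, for the 10271 genes whose mean over the 4 libraries reached 1 FPKM. That minimum passed 37 of the 44 members. Some members reached it only through 1 group, such as MMP1 and MME through the resistant libraries and CPM, ADAM11 and MMP16 through the parental ones, so counts over tested members are descriptions only. The deposit also seems to hold only genes with a mean of about 0.5 FPKM or more in at least 1 group. MMP1, MMP3, MME, SERPINB2 and SERPINB8 reached that only in resistant libraries, and CPM, ADAM19, ADAM32 and ADAMTS13 only in parental ones. Counts over all 44 members are thus descriptions too.

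No member passed the limma test after Benjamini-Hochberg adjustment at 0.05, the level that 0.0584% of all genes tested passed. At an unadjusted limma p under 0.05, 7 of 37 members (18.9%) were higher in resistant cells, where 6.06% of all genes tested were, and 10 members (27%) were lower, where 10.2% of all genes tested were. With median-of-ratios scaling of the libraries these counts were 11 higher and 10 lower, where those of all genes tested were 917 and 880, and with quantile normalization 10 and 10, against 853 and 951. Over all 44 members, both resistant libraries lay above both parental libraries for 18 (40.9%, against 20.1% of all genes in the files) and below both for 18 (40.9%, against 31.8%). Among these, 4 members (9.09%, against 1.43%) were higher by at least 1 on the log2(FPKM + 1) scale, MMP1, MMP3 and MME among them, and 2 members (4.55%, against 1.52%) were lower by that much, namely CPM and HTRA1.

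**Figure D1:**
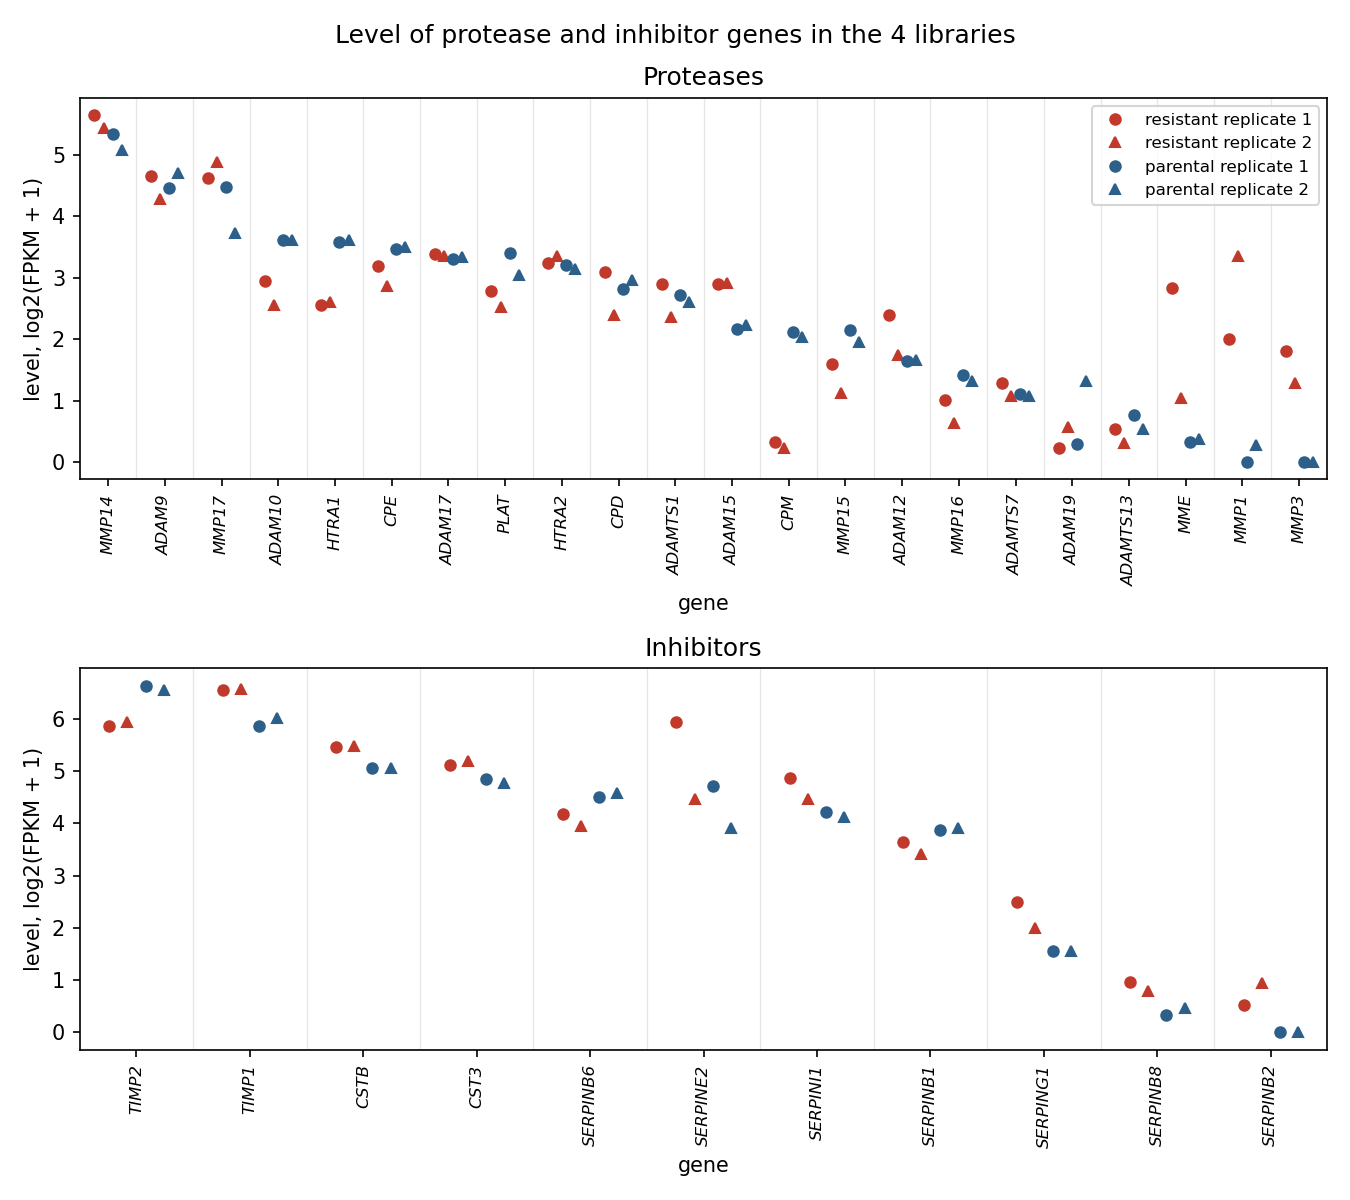
Level of protease genes and inhibitor genes in each library, on the log2(FPKM + 1) scale, with genes ordered by their mean in parental cells. Red marks are resistant and blue marks parental libraries. MMP1, MMP3 and MME stand near 0 in parental libraries only, and CPM near 0 in resistant libraries only, while the abundant genes MMP14, TIMP1 and TIMP2 differ by less.

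Proteases differed in both directions, while most inhibitors were higher in resistant cells. The groups did not overlap for 17 of the 22 proteases, 9 higher and 8 lower in resistant libraries, and the median difference on the log2(FPKM + 1) scale was -0.08. Of the 12 inhibitors, 8 were higher without overlap and 3 were lower, with a median difference of 0.49. SERPINB2 and SERPINB8 are among these 8, but seem to be in the deposit only through the resistant libraries. They therefore do not bear on the direction. The same holds for MMP1, MMP3 and MME among the higher proteases, and, through the parental libraries, for CPM and ADAMTS13 among the lower ones. Of the 10 tested inhibitors, 4 were higher and 2 lower at an unadjusted limma p under 0.05, and of the 19 tested proteases 3 were higher and 6 lower. At that p 6.06% of all genes tested were higher and 10.2% lower. Over all genes in the files 20.1% were higher and 31.8% lower without overlap, and the median difference was -0.07. Of the 10 members that are neither, 1 was higher and 7 were lower without overlap. Summed FPKM of the proteases was 182 and 161 in resistant libraries and 169 and 156 in parental libraries, and that of the inhibitors was 352 and 309 against 297 and 286. The ratio of the sums was 0.518 and 0.522 in resistant libraries and 0.569 and 0.545 in parental libraries, so inhibitor transcripts outweighed protease transcripts in all 4 libraries. These sums rest on few abundant genes. TIMP1 and TIMP2 made up 42.5% and 49.8% of the inhibitor sum in resistant libraries and 52.2% and 54.6% in parental libraries. Their summed FPKM hardly differed, at 149 and 154 in resistant libraries and 155 and 156 in parental libraries. SERPINE2, which overlapped between the groups, added 60.4 and 21.1 FPKM in resistant libraries and 25.4 and 14.1 FPKM in parental libraries. The ratio of the sums was not taken without SERPINE2, so it does not bear on the inhibitors at large.

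**Figure D2:**
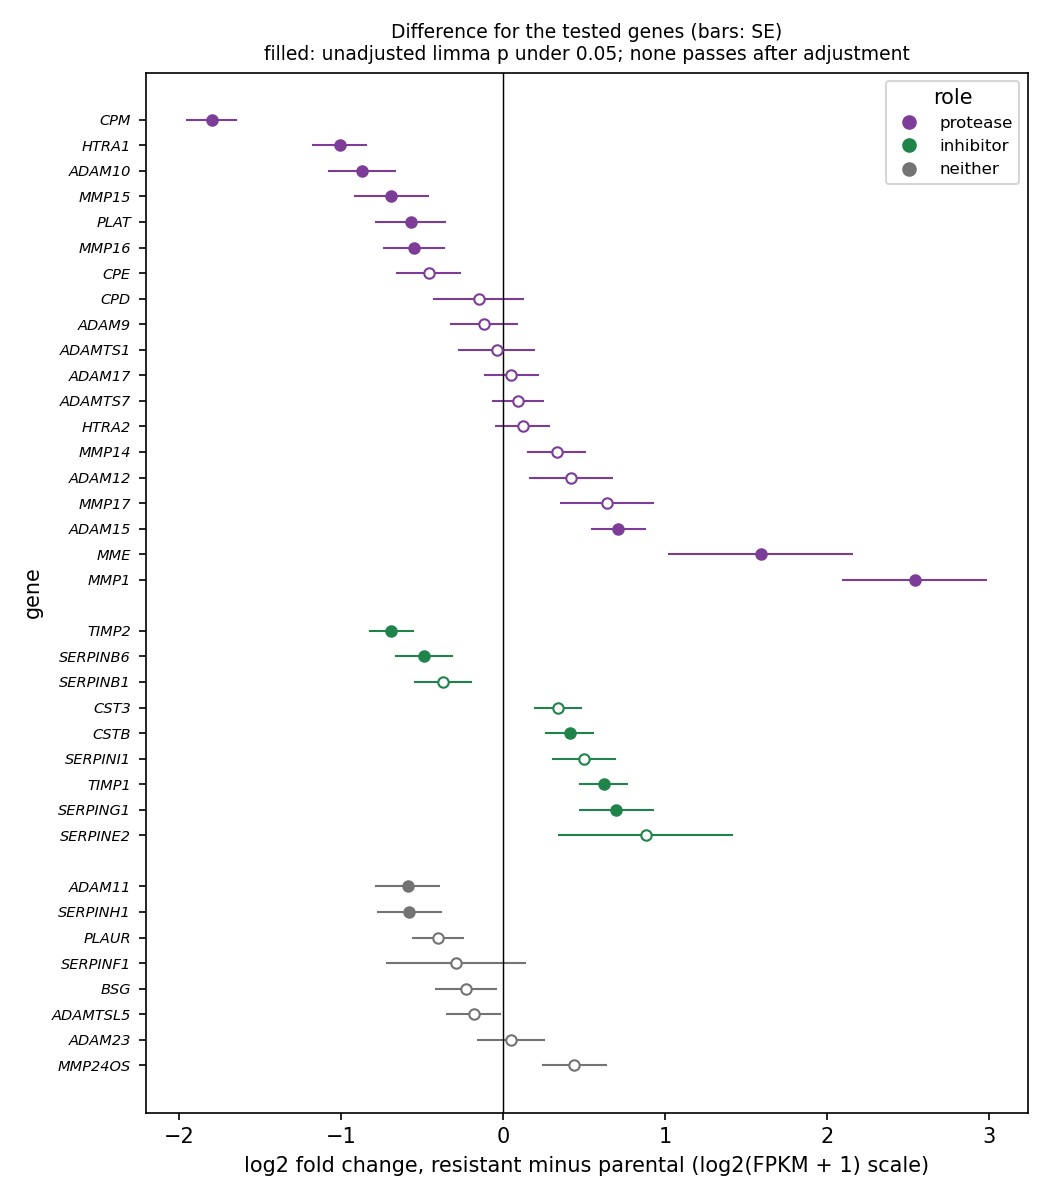
Log2 fold change, resistant minus parental, with its limma standard error, for tested members, grouped by role. Filled marks have an unadjusted limma p under 0.05 and none passes after adjustment. Proteases reach from -1.80 for CPM to 2.54 for MMP1, and of the inhibitors drawn TIMP2, SERPINB6 and SERPINB1 lie below 0.

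The 2 TIMP genes of the files differed in opposite directions, and their order by level was reversed between the groups. TIMP1, which inhibits most secreted metalloproteinases, stood at 92.5 and 93.7 FPKM in resistant libraries and at 56.8 and 63.4 FPKM in parental libraries. TIMP2, which blocks metalloproteinases and also bridges pro-MMP2 to MMP14 at the cell surface, stood at 57.0 and 60.5 FPKM in resistant libraries and at 98.2 and 92.5 FPKM in parental libraries. Replicates of each group lay close together and the groups did not overlap for either gene. The log2 fold change was 0.62 ± 0.15 (SE) for TIMP1 (limma adjusted p = 0.175). For TIMP2 it was -0.69 ± 0.14 (SE; limma adjusted p = 0.156).

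The sum of both hardly differed, with 149 and 154 FPKM in resistant libraries and 155 and 156 FPKM in parental libraries, while the ratio of TIMP1 to TIMP2 was 1.62 and 1.55 in resistant libraries and 0.578 and 0.686 in parental libraries. MMP14, a membrane-anchored collagenase and the most abundant protease of the set, stood at 48.9 and 42.1 FPKM in resistant libraries and at 39.5 and 32.6 FPKM in parental libraries (log2 fold change 0.33 ± 0.18 SE, limma adjusted p = 0.418). Set against TIMP2, it had a ratio of 0.858 and 0.697 in resistant libraries and 0.402 and 0.352 in parental libraries. Set against TIMP1, it had a ratio of 0.529 and 0.45 in resistant libraries and 0.694 and 0.513 in parental libraries, and the groups overlapped. These ratios are given as values and were not tested.

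**Figure D3:**
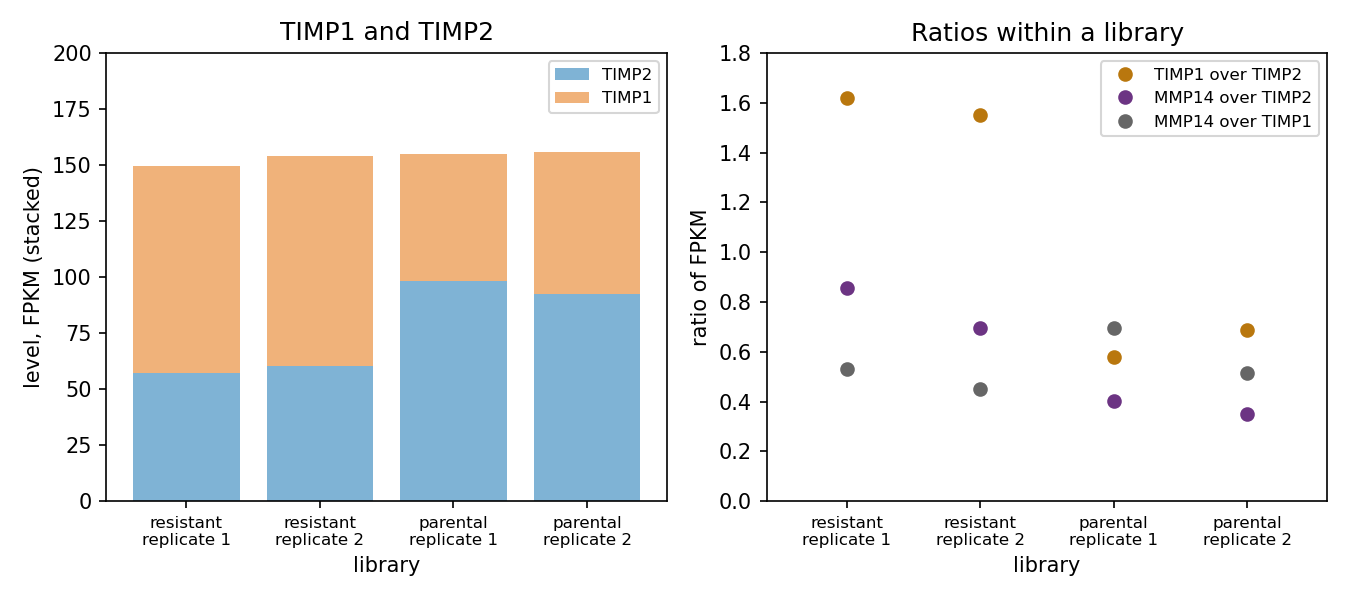
Left, stacked FPKM of TIMP2 and TIMP1 in each library. Right, ratios of FPKM within a library. The stacks reach 149 to 156 FPKM in all 4 libraries, and TIMP1 over TIMP2 is 1.62 and 1.55 in resistant libraries against 0.578 and 0.686 in parental libraries.

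Secreted collagenase and stromelysin transcripts were seen almost only in resistant cells. MMP1, an interstitial collagenase, stood at 3.00 and 9.25 FPKM in resistant libraries, against a listed 0 and 0.213 FPKM in parental libraries. Its log2 fold change on the log2(FPKM + 1) scale was 2.54 ± 0.45 (SE; limma adjusted p = 0.131), the largest of the 37 tested members. It was 1.86 without resistant replicate 2 and 4.93 with a pseudocount of 0.1, so its size depends on the library and on the scale. MMP3, a stromelysin that cuts many matrix proteins and activates pro-MMP1, stood at 2.51 and 1.44 FPKM in resistant libraries and was listed at 0 in both parental libraries. Its mean lay just under the minimum, and in the fit with no minimum its limma adjusted p was 0.0907.

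The MMP1 and MMP3 genes lie close together on chromosome 11 (GENCODE release 29 on GRCh38), MMP1 (ENSG00000196611.4_2) from 102789920 to 102798160 and MMP3 (ENSG00000149968.11_2) from 102835801 to 102843803. The 2 resistant libraries did not rank them alike, since MMP1 was higher in resistant replicate 2 and MMP3 in resistant replicate 1. Fibroblasts are a known source of both. Of 9 fibroblast markers, 3 had a value, and their summed FPKM was 9.59 and 7.34 in resistant libraries and 5.20 and 6.01 in parental libraries. Of these, LUM was the most abundant and overlapped between the groups, at 7.69 and 4.92 FPKM in resistant libraries and 4.45 and 5.16 FPKM in parental libraries. COL1A2, a chain of collagen I, stood at 0.747 and 0.531 FPKM in resistant libraries and at 0.00848 and 0.00683 FPKM in parental libraries. COL1A1 was also higher in both resistant libraries, and the other 6 markers had no value here. The part of other cells in these levels was not tested, and in bulk RNA more cells of a type and more RNA per cell cannot be told apart.

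The membrane-bound metalloproteinases did not share a direction. MMP17, which is held at the surface by a lipid anchor, stood at 23.5 and 28.6 FPKM in resistant libraries and at 21.3 and 12.3 FPKM in parental libraries, and the gap to the higher parental library was small (log2 fold change 0.64 ± 0.29 SE, limma adjusted p = 0.349). MMP15 stood at 2.03 and 1.18 FPKM in resistant libraries and at 3.41 and 2.88 FPKM in parental libraries (log2 fold change -0.69 ± 0.23 SE, limma adjusted p = 0.265). MMP16 stood at 1.02 and 0.552 FPKM in resistant libraries and at 1.68 and 1.5 FPKM in parental libraries (log2 fold change -0.55 ± 0.19 SE, limma adjusted p = 0.280). Both are transmembrane relatives of MMP14 and were lower in each resistant library than in each parental one. BSG, a membrane glycoprotein known to induce metalloproteinases in neighbouring cells, stood at 75.2 and 74.8 FPKM in resistant libraries and at 103 and 75.4 FPKM in parental libraries. Its difference rested on parental replicate 1, and the log2 fold change of -0.23 was -0.01 without that library. MMP24OS, named for its place opposite MMP24, had 4.55 and 4.03 FPKM in resistant libraries and 3.28 and 2.56 FPKM in parental libraries. It shares 14.5% of its exonic bases with MMP24 on the other strand, and it is unknown here if counting used strand.

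Among the ADAM sheddases, ADAM10 was lower and ADAM15 higher in resistant cells, while ADAM17 and ADAM9 stood at like levels. ADAM10, the main sheddase of Notch receptors and of the amyloid precursor protein, stood at 6.69 and 4.89 FPKM in resistant libraries and at 11.2 and 11.3 FPKM in parental libraries, a mean ratio of 0.513. ADAM17, the sheddase of tumour necrosis factor and of several growth factor precursors, stood at 9.44 and 9.21 FPKM in resistant libraries and at 8.86 and 9.09 FPKM in parental libraries. The ratio of ADAM10 to ADAM17 was 0.709 and 0.530 in resistant libraries and 1.27 and 1.25 in parental libraries, so ADAM10 was the higher transcript of the pair in parental cells only. In limma the log2 fold change was -0.87 ± 0.21 (SE, adjusted p = 0.179) for ADAM10 and 0.05 ± 0.17 (SE, adjusted p = 0.9) for ADAM17. ADAM17 shares 12.3% of its exonic bases with IAH1 on the other strand.

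ADAM15, which also binds integrins, stood at 6.49 and 6.55 FPKM in resistant libraries and at 3.49 and 3.69 FPKM in parental libraries, with replicates within 1.06 times of each other (log2 fold change 0.71 ± 0.17 SE, limma adjusted p = 0.185). ADAM9 was the most abundant ADAM with a protease site, at 24.3 and 18.4 FPKM in resistant libraries and 21.1 and 25.1 FPKM in parental libraries, and the groups overlapped. ADAM12 stood at 4.28 and 2.35 FPKM in resistant libraries and at 2.14 and 2.15 FPKM in parental libraries. Its log2 fold change of 0.42 was 0.09 without resistant replicate 1. ADAM19 was under the minimum and its parental libraries differed by a ratio of 6.69, at 0.168 and 0.487 FPKM in resistant libraries and 0.224 and 1.5 FPKM in parental libraries.

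Of the ADAM proteins without a working protease site, which act in cell adhesion, ADAM23 was abundant and overlapped between groups, at 24.1 and 17.5 FPKM in resistant libraries and 20.1 and 19.4 FPKM in parental libraries. ADAM11 stood at 0.839 and 0.559 FPKM in resistant libraries and at 1.86 and 1.26 FPKM in parental libraries (log2 fold change -0.59 ± 0.20 SE, limma adjusted p = 0.265). ADAM22 and ADAM32 were under the minimum in mean, and for each the resistant libraries lay below the parental ones. ADAM22 had 0.750 and 0.365 FPKM in resistant libraries and 0.801 and 0.889 FPKM in parental libraries. Among the secreted ADAMTS enzymes, ADAMTS1 and ADAMTS7 overlapped between the groups, and ADAMTS13 was lower in both resistant libraries. ADAMTS1, which cleaves proteoglycans, stood at 6.44 and 4.13 FPKM in resistant libraries and at 5.57 and 5.10 FPKM in parental libraries, and the sign of its small difference turned with the scaling. ADAMTS7 stood at 1.43 and 1.11 FPKM in resistant libraries and at 1.16 and 1.10 FPKM in parental libraries, and whether reads were shared with its pseudogene copies was not tested, so its level is uncertain. ADAMTS13, which cuts von Willebrand factor, was under the minimum, at 0.446 and 0.242 FPKM in resistant libraries and 0.699 and 0.460 FPKM in parental libraries. ADAMTSL5, a relative without a protease domain, stood at 2.20 and 1.90 FPKM in resistant libraries and at 2.54 and 2.37 FPKM in parental libraries.

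The peptidases that trim short peptides included CPM, which was lower in resistant cells, and MME, which was higher. CPM, a membrane-anchored carboxypeptidase that removes a basic residue from the end of peptides such as kinins, stood at 0.254 and 0.173 FPKM in resistant libraries and at 3.34 and 3.08 FPKM in parental libraries, a ratio of parental to resistant means of 15. Its log2 fold change was -1.80 ± 0.16 (SE; limma adjusted p = 0.0544), the smallest adjusted p among the members. Without parental replicate 1 its limma adjusted p was 0.0212 and without parental replicate 2 it was 0.0382, in fits where the lone parental library is assumed to vary like the resistant pair. Its limma adjusted p ran over a range of 0.0212 to 0.133 in the 11 alternatives that gave it a value. CPM is also known from macrophages, as are CD68 and LCP1. These 2 were the leukocyte markers with a value, of 8 listed, and their summed FPKM was 13.2 and 10.7 in resistant libraries and 32.6 and 27.4 in parental libraries. The other 6, PTPRC and CD14 among them, had no value here, and the part of such cells in the level of CPM was not tested.

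MME, the surface endopeptidase neprilysin, stood at 6.14 and 1.05 FPKM in resistant libraries and at 0.258 and 0.292 FPKM in parental libraries. The 2 resistant libraries differed by a ratio of 5.86, and the log2 fold change of 1.59 ± 0.57 (SE, limma adjusted p = 0.285) was 0.68 without resistant replicate 1. CPE, the carboxypeptidase of prohormone processing, stood at 8.15 and 6.25 FPKM in resistant libraries and at 10.1 and 10.3 FPKM in parental libraries. CPD, a carboxypeptidase of the Golgi, stood at 7.57 and 4.26 FPKM in resistant libraries and at 6.07 and 6.82 FPKM in parental libraries, and the groups overlapped.

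HTRA1, a secreted serine protease that degrades matrix proteins, was lower in resistant cells with close replicates. It stood at 4.87 and 5.11 FPKM in resistant libraries and at 10.9 and 11.2 FPKM in parental libraries (log2 fold change -1.01 ± 0.17 SE, limma adjusted p = 0.122). HTRA2 stood at 8.49 and 9.23 FPKM in resistant libraries and at 8.25 and 7.87 FPKM in parental libraries, a log2 fold change of 0.12 ± 0.17 (SE, limma adjusted p = 0.760). It shares 20.8% of its exonic bases with LOXL3 on the other strand.

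In the plasminogen system, the activator PLAT and the receptor PLAUR were lower in resistant cells. PLAT, the tissue-type activator, stood at 5.85 and 4.77 FPKM in resistant libraries and at 9.58 and 7.25 FPKM in parental libraries (log2 fold change -0.57 ± 0.22 SE, limma adjusted p = 0.300). PLAUR, the receptor of the urokinase-type activator, stood at 1.26 and 1.12 FPKM in resistant libraries and at 1.94 and 1.85 FPKM in parental libraries (log2 fold change -0.40 ± 0.16 SE, limma adjusted p = 0.308). PLAU itself had no value here.

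SERPINB2, an inhibitor of plasminogen activators, was listed at 0 in both parental libraries and stood at 0.431 and 0.917 FPKM in resistant libraries. It was under the minimum and shares 19.9% of its exonic bases with SERPINB10 on the same strand. SERPINE2, which inhibits thrombin and plasminogen activators, was abundant but irregular, at 60.4 and 21.1 FPKM in resistant libraries and 25.4 and 14.1 FPKM in parental libraries. The groups overlapped, and its log2 fold change of 0.88 was 0.14 without resistant replicate 1. SERPINI1, neuroserpin, which inhibits PLAT, stood at 28.0 and 21.2 FPKM in resistant libraries and at 17.5 and 16.5 FPKM in parental libraries (log2 fold change 0.50 ± 0.20 SE, limma adjusted p = 0.310). SERPINE2 and SERPINI1 thus each had a higher mean in resistant cells, and neither passed the adjusted test. SERPINB2 seems to be in the deposit only through the resistant libraries, so its direction is a description only.

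**Figure D4:**
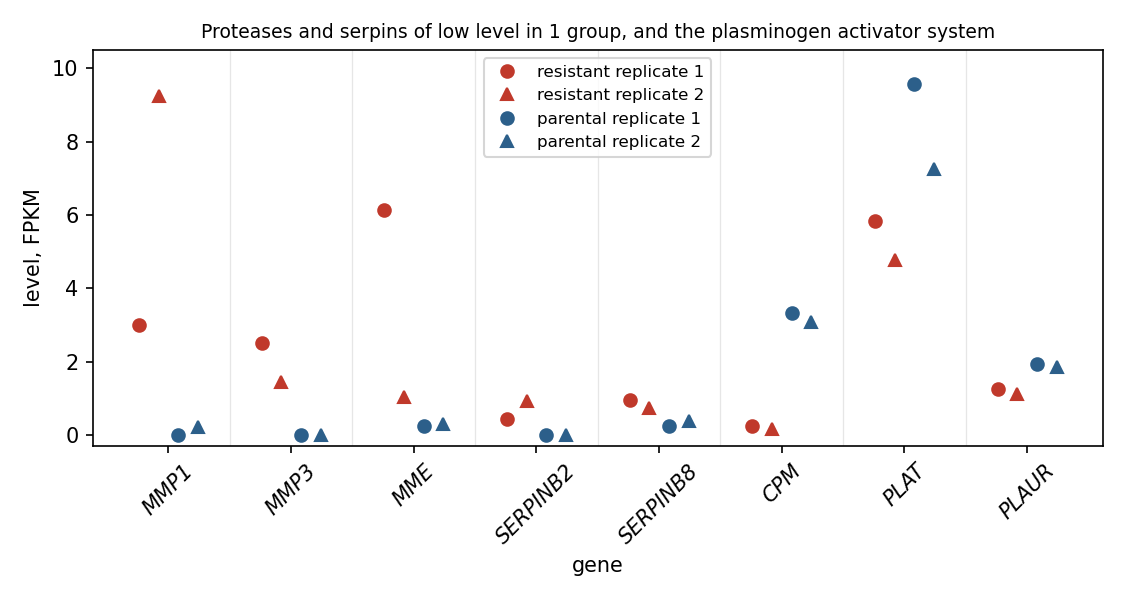
FPKM in each library for members of low level in either group and for the plasminogen system, with resistant libraries in red and parental libraries in blue. MMP3 and SERPINB2 are at 0 in both parental libraries, and MMP1 is highest in resistant replicate 2, while MME is highest in resistant replicate 1.

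Serpins of clade B on the same chromosome differed in the same direction in 2 pairs. SERPINB1 and SERPINB6, inhibitors of proteases inside cells, lie on chromosome 6, from 2832332 to 2842006 and from 2948159 to 2972165 in GENCODE release 29, and both were lower in resistant cells. SERPINB6 stood at 17.1 and 14.4 FPKM in resistant libraries and at 21.8 and 23.0 FPKM in parental libraries (log2 fold change -0.49 ± 0.18 SE, limma adjusted p = 0.285). SERPINB1 stood at 11.5 and 9.67 FPKM in resistant libraries and at 13.7 and 14.1 FPKM in parental libraries (log2 fold change -0.37 ± 0.18 SE, limma adjusted p = 0.374). SERPINB2 and SERPINB8 lie on chromosome 18, from 63871692 to 63903890 and from 63969925 to 64019779, and both were higher. SERPINB8 was under the minimum, at 0.957 and 0.742 FPKM in resistant libraries and 0.258 and 0.385 FPKM in parental libraries. SERPINB2 and SERPINB8 seem to be in the deposit only through the resistant libraries, so their shared direction is a description only.

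SERPING1, the inhibitor of the complement protease C1, stood at 4.64 and 3.01 FPKM in resistant libraries and at 1.94 and 1.93 FPKM in parental libraries (log2 fold change 0.70 ± 0.23 SE, limma adjusted p = 0.259). The cystatins, which inhibit cysteine proteases of the cathepsin family, were higher with narrow spread. CSTB stood at 43.2 and 43.6 FPKM in resistant libraries and at 32.4 and 32.5 FPKM in parental libraries (log2 fold change 0.41 ± 0.15 SE, limma adjusted p = 0.285). CST3, the secreted cystatin C, stood at 33.7 and 35.5 FPKM in resistant libraries and at 27.9 and 26.2 FPKM in parental libraries (log2 fold change 0.34 ± 0.15 SE, limma adjusted p = 0.350). For both genes each resistant library was above each parental library.

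The serpins that do not inhibit proteases were SERPINH1 and SERPINF1. SERPINH1, the collagen chaperone of the endoplasmic reticulum, stood at 17.0 and 12.9 FPKM in resistant libraries and at 21.8 and 23.2 FPKM in parental libraries (log2 fold change -0.58 ± 0.20 SE, limma adjusted p = 0.274). SERPINF1, pigment epithelium-derived factor, which restrains vessel growth, stood at 55.7 and 56.3 FPKM in resistant libraries and at 109 and 42.8 FPKM in parental libraries. The parental libraries thus lay on either side of the resistant ones. Its log2 fold change of -0.29 was 0.38 without parental replicate 1 and -0.95 without parental replicate 2.

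Promoter sequence was at hand for 30 of the 44 members, from the RefSeq table on GRCh38.p14, in windows of 300 bases that run from 250 bases before to 50 bases after the start site. Searched on both strands were TGANTCA, the AP-1 element known from protease genes, TATAAA, the TATA box, GGAATG, the TEAD element, and ACGTG, the core of hypoxia response elements, which matches CACGTG on both strands at positions that overlap. TGANTCA was in 3 of the 30 windows (PLAUR, SERPINB2 and SERPINB8), as it was in 7.71% of 35116 promoters. TATAAA was in 2 (SERPINB2 and SERPINB8, against 11.5%), GGAATG in 5 (against 14.0%) and ACGTG in 12 (against 21.4%). Of the 12 windows of members that were higher without overlap, TGANTCA was in 2, and of the 13 windows of members that were lower without overlap, in 1. A match describes letters only, and its absence says nothing of the factor.

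Printed here are SERPINB2, listed at 0 in both parental libraries, and TIMP1, of the TIMP pair that differed in opposite directions. Also printed are ADAM10, of the pair ADAM10 and ADAM17 described above, and CPM, the member with the smallest adjusted p. Bases are given 5′ to 3′ along the gene's strand, and capitals mark matches to any of the 4 motifs. SERPINB2 (chr18:63887455-63887754, plus strand) has TGANTCA with its first base 102 bases before the start site and TATAAA 30 bases before it. TIMP1 (chrX:47582186-47582485, plus strand) has 1 ACGTG, ADAM10 (chr15:58749658-58749957, minus strand) has 1 CACGTG, read as a pair of overlapping ACGTG matches, and CPM (chr12:68933150-68933449, minus strand) has none of the motifs.
SERPINB2: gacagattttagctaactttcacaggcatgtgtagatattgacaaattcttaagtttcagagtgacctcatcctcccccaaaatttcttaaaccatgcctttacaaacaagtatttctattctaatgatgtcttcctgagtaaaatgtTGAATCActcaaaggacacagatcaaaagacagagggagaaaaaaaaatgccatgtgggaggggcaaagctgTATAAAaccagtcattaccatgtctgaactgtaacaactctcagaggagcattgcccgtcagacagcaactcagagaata
TIMP1: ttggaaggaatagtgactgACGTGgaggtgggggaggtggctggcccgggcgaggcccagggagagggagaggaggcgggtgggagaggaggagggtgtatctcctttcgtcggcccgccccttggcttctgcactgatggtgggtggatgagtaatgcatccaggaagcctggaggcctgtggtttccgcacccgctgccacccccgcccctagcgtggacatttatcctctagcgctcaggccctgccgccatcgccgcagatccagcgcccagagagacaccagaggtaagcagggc
ADAM10: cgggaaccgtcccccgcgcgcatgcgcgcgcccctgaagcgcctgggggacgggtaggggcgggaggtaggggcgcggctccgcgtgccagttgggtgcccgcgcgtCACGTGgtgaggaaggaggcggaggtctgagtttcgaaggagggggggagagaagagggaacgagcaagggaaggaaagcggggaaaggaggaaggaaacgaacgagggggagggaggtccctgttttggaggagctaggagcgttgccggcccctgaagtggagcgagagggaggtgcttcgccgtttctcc
CPM: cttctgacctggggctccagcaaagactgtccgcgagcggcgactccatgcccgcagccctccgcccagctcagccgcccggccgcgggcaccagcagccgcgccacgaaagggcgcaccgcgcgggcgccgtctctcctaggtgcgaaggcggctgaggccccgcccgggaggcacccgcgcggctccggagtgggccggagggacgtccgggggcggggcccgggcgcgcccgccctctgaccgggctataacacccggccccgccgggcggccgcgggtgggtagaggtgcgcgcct

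Beyond the members, 58 further genes of protease biology were listed, among them cathepsins, convertases, other inhibitors and partners of ADAM and plasmin, of which 41 had a value and 38 were tested. None passed the adjusted limma test, and at an unadjusted p under 0.05 1 of the 38 was higher in resistant cells, where 6.06% of all genes tested were, and 7 were lower, where 10.2% were. The median log2 fold change of those tested was -0.03, against -0.08 for all genes tested. F2R, the thrombin receptor that is itself switched on by protease cleavage, was the higher gene, at 55.2 and 67.1 FPKM in resistant libraries and 14.4 and 17.1 FPKM in parental libraries (log2 fold change 1.89 ± 0.19 SE, limma adjusted p = 0.0742).

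Of the 7 lower genes, the 4 with the smallest p were CTSL, VLDLR, CTSB and CTSV. CTSL, a lysosomal and secreted cysteine protease, stood at 39.0 and 23.8 FPKM in resistant libraries and at 72.6 and 74.8 FPKM in parental libraries (log2 fold change -1.25 ± 0.26 SE, limma adjusted p = 0.156). CTSV, its close relative, stood at 4.54 and 2.93 FPKM in resistant libraries and at 7.11 and 7.34 FPKM in parental libraries. CTSB stood at 40.3 and 39.2 FPKM in resistant libraries and at 59.9 and 55.7 FPKM in parental libraries (log2 fold change -0.53 ± 0.15 SE, limma adjusted p = 0.215). VLDLR, a receptor that takes up complexes of proteases with serpins, stood at 9.75 and 6.87 FPKM in resistant libraries and at 17.1 and 18.2 FPKM in parental libraries (log2 fold change -1.02 ± 0.22 SE, limma adjusted p = 0.158). CTSZ and A2M were the most abundant of the list. CTSZ stood at 210 and 197 FPKM in resistant libraries and at 296 and 244 FPKM in parental libraries. A2M, a broad protease trap, stood at 104 and 74.3 FPKM in resistant libraries and at 124 and 121 FPKM in parental libraries.

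Among 28 listed substrates of these proteases, 22 had a value and 20 were tested, and none passed the adjusted limma test. At an unadjusted p under 0.05, 3 of the 20 were higher in resistant cells, where 6.06% of all genes tested were, and 3 were lower, where 10.2% were. FN1, fibronectin, stood at 9.02 and 5.12 FPKM in resistant libraries and at 1.12 and 1.25 FPKM in parental libraries (log2 fold change 1.84 ± 0.28 SE, limma adjusted p = 0.103). ERBB3, a growth factor receptor, stood at 8.81 and 13.0 FPKM in resistant libraries and at 3.13 and 3.57 FPKM in parental libraries. SDC3, a surface proteoglycan, stood at 8.28 and 9.29 FPKM in resistant libraries and at 5.58 and 3.96 FPKM in parental libraries. All 3 were higher in each resistant library.

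LAMB1, a laminin chain of basement membranes, was the substrate gene with the smallest p, at 8.35 and 6.79 FPKM in resistant libraries and 21.4 and 21.8 FPKM in parental libraries (log2 fold change -1.40 ± 0.18 SE, limma adjusted p = 0.0788). SDC4 stood at 11.8 and 7.81 FPKM in resistant libraries and at 16.8 and 14.5 FPKM in parental libraries, and MCAM, an adhesion molecule of melanoma, stood at 8.82 and 8.54 FPKM in resistant libraries and at 13.3 and 12.0 FPKM in parental libraries. APP and SPARC were the most abundant. APP, a substrate of ADAM10, stood at 67.1 and 44.0 FPKM in resistant libraries and at 72.7 and 69.9 FPKM in parental libraries. SPARC stood at 63.8 and 44.8 FPKM in resistant libraries and at 58.1 and 57.6 FPKM in parental libraries. THBS1, thrombospondin, was chosen for mention after its values were seen, since it was listed at 0 in both parental libraries and stood at 1.09 and 0.886 FPKM in resistant libraries.

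**Figure D5:**
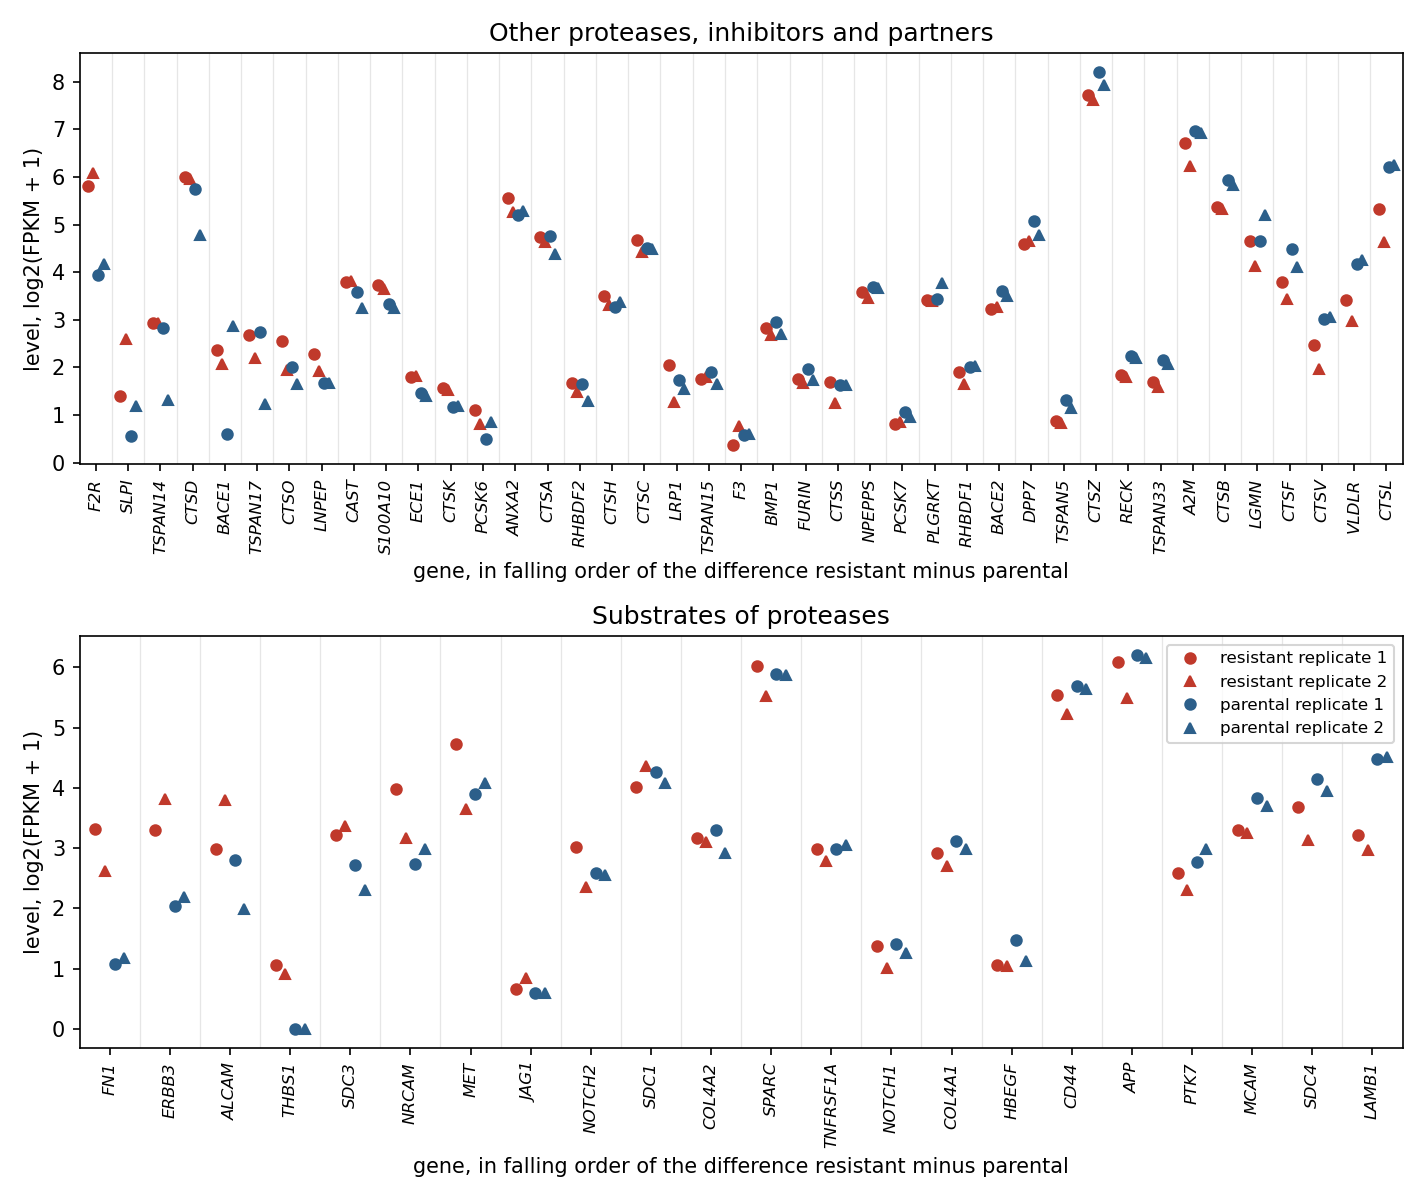
Level of listed partner genes (top) and substrate genes (bottom) in each library, on the log2(FPKM + 1) scale, ordered by the difference between resistant and parental cells. F2R and FN1 open the 2 panels and CTSL and LAMB1 close them.

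The 2 libraries of a group did not support each member equally. The resistant libraries differed by over 2 times for 8 of the 44 members, where 12.5% of all genes in the files did. The parental libraries did so, with both values above 0, for 2 members, where 5.68% of all genes did. That condition was set for the parental pair only, so the shares are not the same measure. It left out MMP1, at 0 and 0.213 FPKM in parental libraries. Among the 8 were MMP1, MME, SERPINE2, SERPINB2, ADAM19, ADAM22 and ADAM32, and the 2 were SERPINF1 and ADAM19. Resistant replicate 2 was the higher for MMP1, SERPINB2 and ADAM19, and resistant replicate 1 for MME, SERPINE2, ADAM22 and ADAM32. Of the members that differed by at least 1 on the log2(FPKM + 1) scale, CPM and HTRA1 had resistant replicates within 1.47 times of each other, while MMP1, MMP3 and MME had resistant replicates further apart, by 1.74 times for MMP3 and by over 2 times for MMP1 and MME. Markers of epithelial cells also differed, with summed FPKM of 9.39 and 17.7 over 3 keratins in resistant libraries and 3.12 and 3.91 in parental libraries, and their part in these results was not tested. The other 5 epithelial markers, EPCAM and CDH1 among them, had no value here.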

How the data were processed

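RNA sequencing was done on 2 resistant and 2 parental libraries of the cell line 92.1. Per the labels' protocols, messenger RNA was selected or ribosomal RNA removed, and libraries kept strand by a dUTP method. The authors deposited FPKM values, per the file headers, with 1 value per gene and library, and the submitters' processing notes name hg38. Not given in the sources used here are the aligner, the program behind FPKM, its annotation and whether strand was used. The smallest larger group mean was 0.5009 FPKM, so genes under about 0.5 seem to have been left out before deposit. A step of 1 fragment was sought in low values of genes with 1 transcript, and the fullest window of 1% width held 3 to 5 genes, so depth is unknown and no count model was used.

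Gene IDs were matched to current symbols (11575 of 11650), then to GENCODE release 29. MMP24OS matched the rule by its letters and was placed with neither proteases nor inhibitors. Values were taken as log2(FPKM + 1) and fitted for all genes whose mean reached 1 FPKM. The two-sided test was that of limma 3.58.1 (R 4.3.3), its prior variance following the mean level, with Benjamini-Hochberg adjustment over 10271 genes at 0.05. A fold change on this scale understates changes of low genes. The fit was tested on simulated data. Python 3.11.15 was used for tables and figures.

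Members and lists were chosen with earlier results of these data known. Values in each library were printed for up to 15 tested members per direction with the largest log2 fold change and groups that do not overlap, and for the 3 most abundant of each role class. From the added lists, up to 4 genes per direction with the smallest unadjusted p under 0.05 and the 2 most abundant were printed. MMP3, SERPINB2, SERPINB8, ADAM19, THBS1 and the marker genes fell outside and were chosen after their values were seen, as were the ratios between genes. Of the members, 1 is included in the counts, sums and medians but is not reported or drawn here. A total of 12 alternatives were fitted.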

Additional observations from a re-analysis of the deposited data

How the results depend on the processing

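In every alternative no member was called higher, and CPM was the 1 member called lower without parental replicate 1 or 2 (0 to 1 over the fits that leave out a library). Over all genes, 5 higher and 1 lower calls became 3 higher with a pseudocount of 0.1, median-of-ratios scaling or quantile normalization, 3 lower after rescaling to a common sum, and 0 to 19 higher and 0 to 13 lower without a library. Members at an unadjusted p under 0.05 (7 higher, 10 lower) numbered 3 and 6 at a minimum of 5 FPKM, 11 higher with median-of-ratios scaling, and 4 to 10 higher and 3 to 14 lower without a library. The split of all genes at that p was 622 higher and 1045 lower, and 917 and 880 with median-of-ratios scaling. At a minimum of 5 FPKM, where 24 members were tested, 327 of 5632 genes were higher and 630 lower. The split of all genes also shifted in the fits without a library, which leave a lone library in a group. Member counts from those fits therefore do not bear on the members alone. The median log2 fold change of tested proteases (-0.04) ran over a range of -0.30 to 0.08 without a library. That of tested inhibitors (0.45) was 0.38 at a minimum of 5 FPKM, 0.55 with median-of-ratios scaling, 0.52 with quantile normalization and 0.34 to 0.51 without a library. The median of all genes (-0.08) was 0.01 with median-of-ratios scaling. The sign turned for members with small differences: ADAMTS1 (0.05 with median-of-ratios scaling, 0.04 with quantile normalization, -0.30 to 0.23 without a library), and, without a library, ADAM9 (-0.31 to 0.08), ADAM23 (-0.16 to 0.27), ADAMTS7 (-0.01 to 0.19), CPD (-0.50 to 0.21) and SERPINF1 (-0.95 to 0.38). The cause of these shifts was not tested.

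Replicate numbers recur in both groups, but the deviations of like-numbered libraries correlated at -0.071 and the labels name no shared batch. With the replicate block, 4 genes were called higher and 1 lower. At an unadjusted limma p under 0.05, 7 members were then higher and 9 lower, where 569 and 909 of all 10271 genes tested were. FPKM without known depth limits what can be said of genes listed at 0.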
